A study of Mus musculus with 6 samples.

Results

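Thymus RNA was read on its own here, on the 3 of 6 arrays of the series that were hybridized with it, to describe which genes of neurotransmission gave signal in this lymphoid organ. The arrays carried spotted oligonucleotides (oligos) for mouse genes of receptors, channels, transmitter synthesis and signalling, most genes being represented by 2 oligos. One pool of RNA was made from the thymi of 5 adult B10D2 mice, and 15 µg of it was labelled with Cy5 for each of the 3 thymus arrays. The other 3 arrays received RNA pooled in the same way from the cortex of 6 adult mice of the same strain. The labels name no treatment and no mutation for either tissue, and the title of the series concerns hybridization kinetics on the chip. The thymus arrays are hybridizations of 1 pool, so every SD, SE and p-value below measures the spread between arrays and none measures the spread between mice.

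The thymus is the organ in which T lymphocytes mature. Its cells are mostly thymocytes, held in a meshwork of epithelial cells with smaller numbers of other stromal, myeloid and B cells, and it receives sympathetic nerve fibres. Lymphocytes carry some receptors and channels better known from neurons, among them adenosine and neuropeptide receptors and the potassium channels Kcna3 and Kcnn4, which set the membrane potential during calcium signalling in T cells.

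A probe here is 1 oligo of 1 printed sequence entry. Its net signal is the spot median minus the local background median, averaged over its unflagged spots, in scanner units. A probe was called detected where its net signal exceeded the highest unflagged blank spot of the array (spots printed as emp, hole or Buffer) on all 3 thymus arrays. The percentile of a probe is its rank by net signal among the gene probes of the same array, with 100 for the brightest. Brightness depends on the oligo as well as on the RNA, so these ranks order spots, and a rank of one gene above another is not a difference in transcript abundance. Detected means above the blank only, and whether a probe also bound RNA of other genes was not tested. In a pooled tissue, fewer cells of a type and less RNA per cell cannot be told apart.

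The 3 thymus arrays differed in brightness. Each held 1568 spots, of which 1192 were gene spots for 590 probes of 289 entries. The highest of 120 to 126 unflagged blanks was 608, 552 and 723 on thymus arrays 1, 2 and 3, and the median net signal of gene probes was 950, 452 and 564. Each array held 320 blank spots, so most blanks were flagged and left out. Of the 1192 gene spots, 43, 38 and 119 were flagged on the 3 thymus arrays. The detection level thus rests on the smaller part of the blanks. With flagged spots kept, the highest blank was 3831 on array 2 and 3342 on array 3, and 37 probes were detected. A scan setting was inferred from numbers in the name of each scanned image. By these numbers the first array matched cortex 1 and 2, the second matched cortex 3, and the third matched no other array. That the numbers stand for a setting is an assumption. Probe order was largely shared, with Spearman's rho across probes of 0.84 between arrays 1 and 2, 0.86 between 1 and 3 and 0.78 between 2 and 3 (566 to 579 probes, which are not independent replicates). Between the spots of a probe on the same thymus array it was 0.85 to 0.93.

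Of the 590 probes, 200 (33.9%) were detected on all 3 thymus arrays. Single arrays gave more, with 360 probes above the highest blank on array 1, 269 on array 2 and 247 on array 3, a mean of 292 ± 59.9 (SD, n = 3). Another 81 probes were above it on 2 arrays, 114 on 1 array and 195 on none. Values on all 3 arrays existed for 565 probes. Of the 25 others, which the rule cannot call, 15 were above the blank wherever they were measured. Among the detected probes, 114 were more than 2 times the highest blank on every array and 18 more than 10 times.

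**Figure D1:**
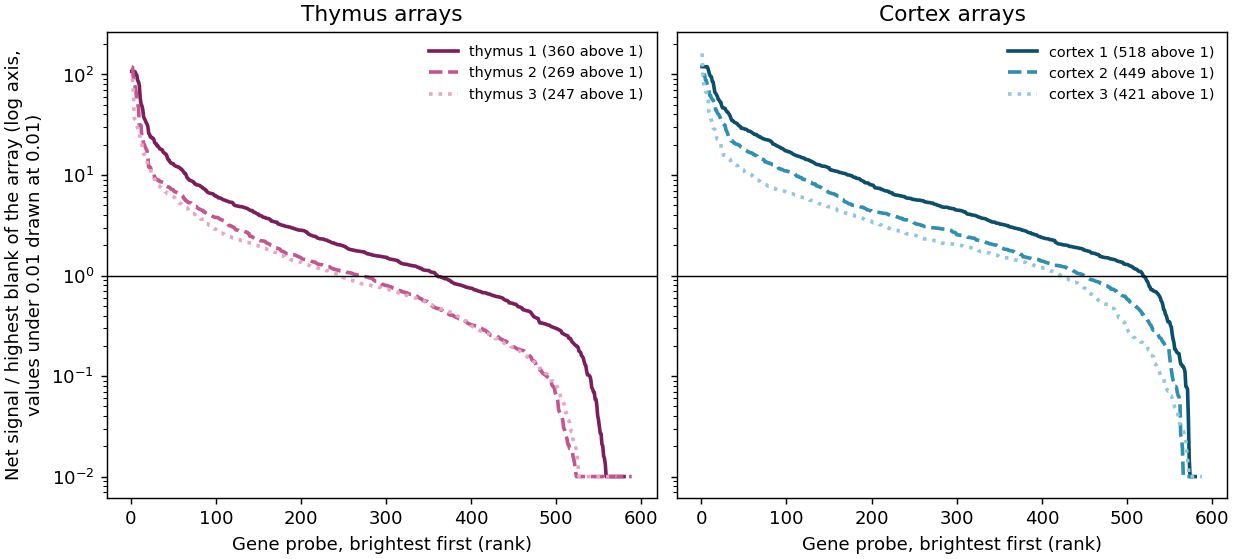
Net signal of each gene probe divided by the highest unflagged blank of its array (log axis), against its rank, for the 3 thymus arrays (left) and the 3 cortex arrays (right); the horizontal line at 1 is the detection level. Ratios under 0.01 are drawn at 0.01. The thymus curves cross the line at 360, 269 and 247 probes, fewer than any cortex curve, at 518, 449 and 421.

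A limma fit of the log2 ratio to the highest blank, which adds the spread between arrays, called 146 of 585 probes above it (25.0%; one-sided, adjusted p under 0.05), 30 of them in the class printed as controls. Of these, 141 were among the detected probes, and 59 detected probes were not called. The fit estimated 1 variance for all probes, an SE of 0.57 log2 units for a probe with 3 values. The count fell when any 1 thymus array was left out, which also leaves fewer values per probe. It was lowest without thymus 1, where 91 probes were called.

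Near the detection level the calls were close. Just inside it, Hoxc8 oligo 1, of a homeobox gene, had net signals of 2332, 554 and 1584, with the second array only 2 units above its highest blank of 552. Just outside, Scn4a oligo 1, of a voltage-gated sodium channel, had 968, 538 and 754. For both probes it was the second array that decided the call.

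The label of the tissue could be checked only in part. The array held no probe for 15 markers of thymocytes and T cells such as Cd3e, Cd4, Cd8a and Rag1, for 6 markers of thymic epithelium, for 4 of myeloid cells or for 3 of dividing cells, so none of these defining genes was measured. Kcna3, Pax5, Rpsa and Vim, which mark cells of the organ more loosely, did have probes, and 6 of these 9 were detected, beside 33.9% of all probes. Array by array, 9, 8 and 6 of them were above the highest blank in thymus and 9, 8 and 8 in cortex. Detection of these probes therefore did not separate the tissues. The 3 Rpsa probes belong to the class printed as controls, of which 67.3% were detected in thymus.

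Rpsa, a ribosomal protein gene that dividing and protein-making cells use heavily, was detected with all 3 of its oligos. Oligo 1 had net signals of 20227, 9664 and 11674 on the thymus arrays, against 6690, 5866 and 2332 on the cortex arrays. For oligo 1, all of the thymus values lay above all of the cortex values. Oligo 2 had 7970, 10499 and 1355 on the thymus arrays, against 6230, 3220 and 2532 on the cortex arrays. Oligo 3 had 7862, 6635 and 1538 on the thymus arrays, against 4190, 2308 and 2093 on the cortex arrays. For oligos 2 and 3 the tissues overlapped, with the third thymus array below every cortex array.

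Kcna3, the voltage-gated potassium channel of T cells, was detected with 1 of 2 oligos. Oligo 1 had 1741, 2451 and 1536 on the thymus arrays, against 1354, 807 and 528 on the cortex arrays, and the tissues did not overlap. It stood 1.49 ± 0.57 log2 units (SE, n = 3) above the highest blank (adjusted p = 0.0216, limma). Oligo 2 had 1378, 2687 and 581 on the thymus arrays, against 1310, 669 and 534 on the cortex arrays; it missed the level on the third thymus array only, and there the tissues overlapped. Kcnn4, the calcium-activated potassium channel of lymphocytes, was printed as a rat sequence and was detected with both oligos. Oligo 1 had 1718, 842 and 808 on the thymus arrays, against 100, 41 and 48 on the cortex arrays, where it was below the highest blank of each array. Oligo 2 had 3444, 1564 and 1815 on the thymus arrays, against 1804, 1578 and 508 on the cortex arrays, and there the tissues overlapped. Of the 4 probes of these lymphocyte channels, 3 were detected, beside 33.9% of all probes. The same number, 3 of 4, was above the highest blank on each cortex array, where 65.1% of all probes were detected on all 3.

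Pax5, the transcription factor that commits cells to the B lineage, was detected with oligo 2 only. That oligo had 1719, 1174 and 924 on the thymus arrays, against 818, 314 and 97 on the cortex arrays, without overlap. It was 0.91 ± 0.57 log2 units above the highest blank and was not called (adjusted p = 0.184, limma). Oligo 1 had 1284, 426 and 446 on the thymus arrays, and 1851, 1939 and 521 on the cortex arrays, so the oligos of this entry ordered the tissues differently. Vim, the intermediate filament of mesenchymal cells, was detected with oligo 1, at 3596, 2845 and 1734 on the thymus arrays, against 5456, 1890 and 1620 on the cortex arrays (1.96 ± 0.57 log2 units above the blank, adjusted p = 0.00233, limma). Its oligo 2 had 2611, 2135 and 517 on the thymus arrays, against 1143, 678 and 767 on the cortex arrays, and was below the level on the third thymus array. Both Vim oligos overlapped between the tissues.

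Markers of brain cells were measured beside these. Of 6 probes for the neuronal genes Eno2 and Gad2, 1 was detected on the thymus arrays, while all 6 were above the blank on each cortex array. Their summed net signal was 4966, 3009 and 3330 on the thymus arrays, against 70811, 53240 and 32802 on the cortex arrays. The detected one was Eno2 oligo 1, of neuronal enolase, with 1774, 1224 and 1464 on the thymus arrays and 25287, 14335 and 8466 on the cortex arrays. Mbp, a myelin protein gene that also gives rise to transcripts in other tissues, was detected with oligo 2 at 3531, 1723 and 3443. Its oligo 1 had 3332 and 2185 on the first and second thymus arrays and no unflagged spot on the third. The summed net signal of the Mbp oligos was 6863, 3908 and 3443 on the thymus arrays, the third from oligo 2 alone. On the cortex arrays it was 68960, 68034 and 27931. The part of any brain-type RNA in the thymus values was not tested.

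The class printed as controls, which holds housekeeping and other widely expressed genes, had 35 of 52 probes detected (67.3%), and 30 of the 52 (57.7%) passed limma. Eef1a1, the translation elongation factor, Gapdh, an enzyme of glycolysis, and Actb, cytoplasmic actin, filled the top 6 places in mean percentile. Eef1a1 oligo 3 had net signals of 65222, 46203 and 62708, and its spots reached the scanner's ceiling on 2 thymus arrays. Gapdh oligo 1 had 64552, 30980 and 26491. Not every control was bright. Both Prdx3 oligo 1 and oligo 2, of a mitochondrial peroxidase, were below the blank on all 3 arrays, at 372, 90 and 443 and at 451, 523 and 66. Rps4x oligo 1, of a ribosomal protein, had 3917, 4423 and -11, while oligo 2 of the same entry had 9926, 2929 and 7698.

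Among the 25 brightest detected probes by mean percentile, 12 were controls and 13 belonged to receptor, channel and developmental classes. Each of these 13 belonged to a different gene or entry. Among them were Gabrq, Gabrb2 and Gabrg3, subunits of the GABA-A receptor, the potassium channels Kcnj14, Kcna2, Kcnc4, Kcnj13 and Kcna6, the serotonin receptor Htr2c and an entry printed 5ht1e, as well as Dlx2 and Adora2a. All 13 were also above the highest blank on all 3 cortex arrays. For 6 of the 13, the other oligo of the same entry was not detected on the thymus arrays.

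The brightest of them was Gabrq oligo 1, for the theta subunit of the GABA-A receptor, with 47293, 25827 and 47924 on the thymus arrays, against 52540, 38466 and 9552 on the cortex arrays. The ranges of the tissues overlapped. Its mean percentile was 98.9 ± 0.64 (SD, n = 3). Gabrq oligo 2 was detected too, but lower in the order, with 2720, 2534 and 1159 and a mean percentile of 77.3. Htr2c oligo 1, for a serotonin receptor studied mainly in brain, had 52733, 28104 and 25302 on the thymus arrays and 35440, 40765 and 14243 on the cortex arrays, again overlapping. Its partner, Htr2c oligo 2, had -240, -46 and -94 on the thymus arrays and 7050, 5060 and 1054 on the cortex arrays.

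Dlx2 oligo 2, of a homeobox gene of forebrain interneurons, had 65188, 17300 and 19876 on the thymus arrays, the first with a saturated spot, and its oligo 1 was above the blank on 1 array only. Kcnj14 oligo 1, of an inward rectifier printed as a rat sequence, had 29626, 11374 and 21383 on the thymus arrays, against 15545, 13780 and 3411 on the cortex arrays. Adora2a oligo 2, of an adenosine receptor that restrains T-cell activation, had 23129, 6570 and 6615 on the thymus arrays, against 24100, 10352 and 3503 on the cortex arrays, which overlapped.

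**Figure D2:**
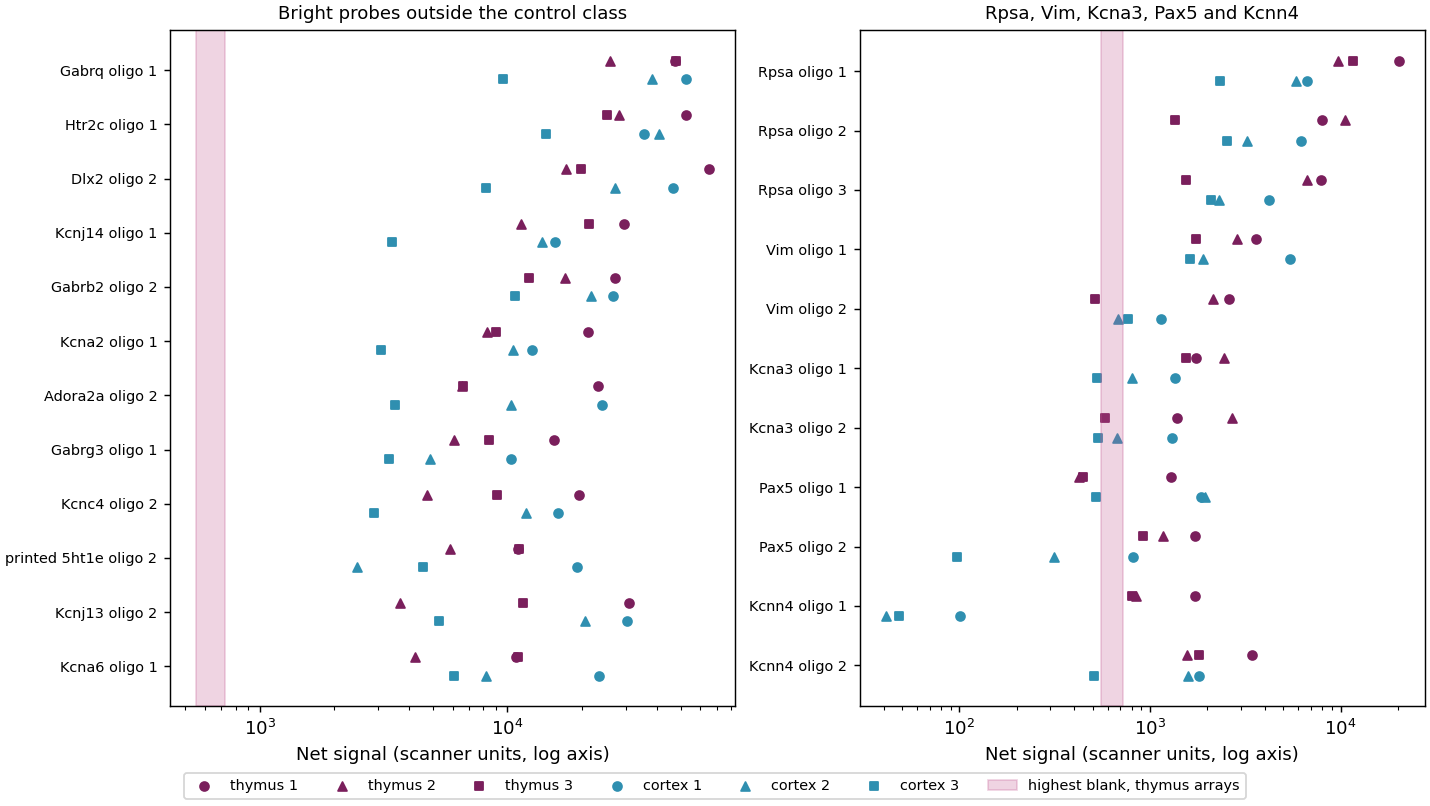
Net signal in scanner units (log axis) of 12 of the 13 brightest detected thymus probes outside the control class (left) and of the probes of Rpsa, Vim, Kcna3, Pax5 and Kcnn4 (right); for each probe the 3 thymus arrays are drawn above the 3 cortex arrays, and the band spans the highest blanks of the thymus arrays, 552 to 723. Rpsa oligo 1, Kcna3 oligo 1, Pax5 oligo 2 and Kcnn4 oligo 1 show no overlap between the tissues, while Gabrq oligo 1 and Htr2c oligo 1 overlap.

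Shares of detected probes by printed class are given beside the 33.9% of all 590 probes, with no test of the difference. Division of a class into subfamilies by gene symbol was made after the values were seen and serves as description. Among ligand-gated receptors, the GABA-A class, whose subunits form the chloride channels of fast inhibition, had 16 of 38 probes detected (42.1%). Beta subunits had 4 of 6, gamma subunits 4 of 8, alpha subunits 4 of 12 and the delta, epsilon, theta and rho subunits 4 of 10. Both oligos were detected for Gabra2, Gabrb2, Gabrg3 and Gabrq, among others. Gabra2 oligo 1 had 4852, 4907 and 16208, being brightest on the third array. Neither oligo was above the blank on any array for Gabra4 or Gabrb1, both named here after their values were seen.

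Glutamate receptors of the AMPA, kainate and delta types, which carry fast excitation, had 1 of 18 probes detected (5.56%), against 17 of 18 on the cortex arrays. The exception was Gria1 oligo 2, with 3597, 2103 and 1768 on the thymus arrays, against 18264, 10100 and 4061 on the cortex arrays (1.83 ± 0.57 log2 units above the blank in thymus, adjusted p = 0.00469, limma). This low count does not describe absence of signal, since 7 more probes of the class were above the blank on 2 thymus arrays, and 5 probes passed when the third array was left out, 3 without the second and 2 without the first. NMDA receptor subunits had 3 of 10 probes detected, each the only oligo of its entry to pass: Grin1 oligo 1, Grin2a oligo 2 and Grin2c oligo 1. Grin2c oligo 1 had 11405, 3728 and 7279, while Grin2c oligo 2 had 195, 107 and 124. On the cortex arrays all 10 NMDA probes were detected. Metabotropic glutamate receptors had 2 of 9, Grm8 oligo 1 at 12402, 2240 and 4237 and Grm5 oligo 1 at 3810, 1442 and 1370.

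Acetylcholine receptors were printed in a nicotinic and a muscarinic class. Nicotinic subunits, which form cation channels, had 2 of 16 probes detected (12.5%). Chrna6 oligo 1 had 10104, 4196 and 5058 on the thymus arrays, against 7352, 2068 and 2442 on the cortex arrays, and Chrng oligo 1 had 2105, 1278 and 3874 on the thymus arrays. Muscarinic receptors had 3 of 12 (25%), with both oligos of Chrm4, at 2218, 707 and 2274 and at 4271, 867 and 1705, and Chrm2 oligo 2. The muscarinic count was 5 at the 95th percentile of the blanks and 0 at 2 times the highest blank. Both oligos of Chrm1 had an unflagged value on the second thymus array only, above the blank there (1294 and 3247), so the rule could not call them.

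Receptors coupled to G proteins for amines and adenosine differed within their classes. In the adrenergic class 4 of 16 probes were detected (25%), and all 4 were beta receptors, which had 4 of 6, against 0 of 10 for alpha receptors. Of the 10 alpha probes, 2 lacked a value and could not be called: Adra1a oligo 2 was measured on the second array only, at 6023, and Adra2a oligo 1 on arrays 1 and 3, at 756 and 1230, each above the blank where measured. Adrb3 had both oligos detected, and oligo 2 had 8160, 4206 and 2995. In the adenosine class, 5 of 12 probes were detected (41.7%), among them both oligos of the entry printed adora1, at 2875, 1919 and 1056 and at 12770, 4739 and 5300. Dopamine receptors had 3 of 12 detected, 2 of them for Drd4, at 7502, 4916 and 2032 for oligo 1 and 14152, 2681 and 5464 for oligo 2. Serotonin receptors had 9 of 26 (34.6%), close to the share of all probes, and 7 of their 13 entries had exactly 1 oligo detected.

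Among receptors for peptides that act on immune cells, the somatostatin receptor Sstr3 had both oligos detected, at 4009, 1213 and 2884 and at 2078, 1046 and 1166 on the thymus arrays. Vipr2, a receptor of vasoactive intestinal peptide, was detected with oligo 2, at 2485, 2086 and 2094, against 1282, 1631 and 885 on the cortex arrays. Those tissues did not overlap. Vipr1, the related receptor, had 1048, 464 and 1125 for oligo 1 and missed the level on the second array. The somatostatin receptor Sstr2 and the substance P receptor Tacr1 had no probe above the blank on any thymus array. Among opioid receptors, Oprm1, the mu receptor, had both oligos detected, and oligo 2 had 7125, 3221 and 2630. The cannabinoid receptor Cnr1 was detected with oligo 1 at 2908, 878 and 1646, and Cnr2, the form known from immune cells, was below the blank with both oligos on all 3 arrays.

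**Figure D3:**
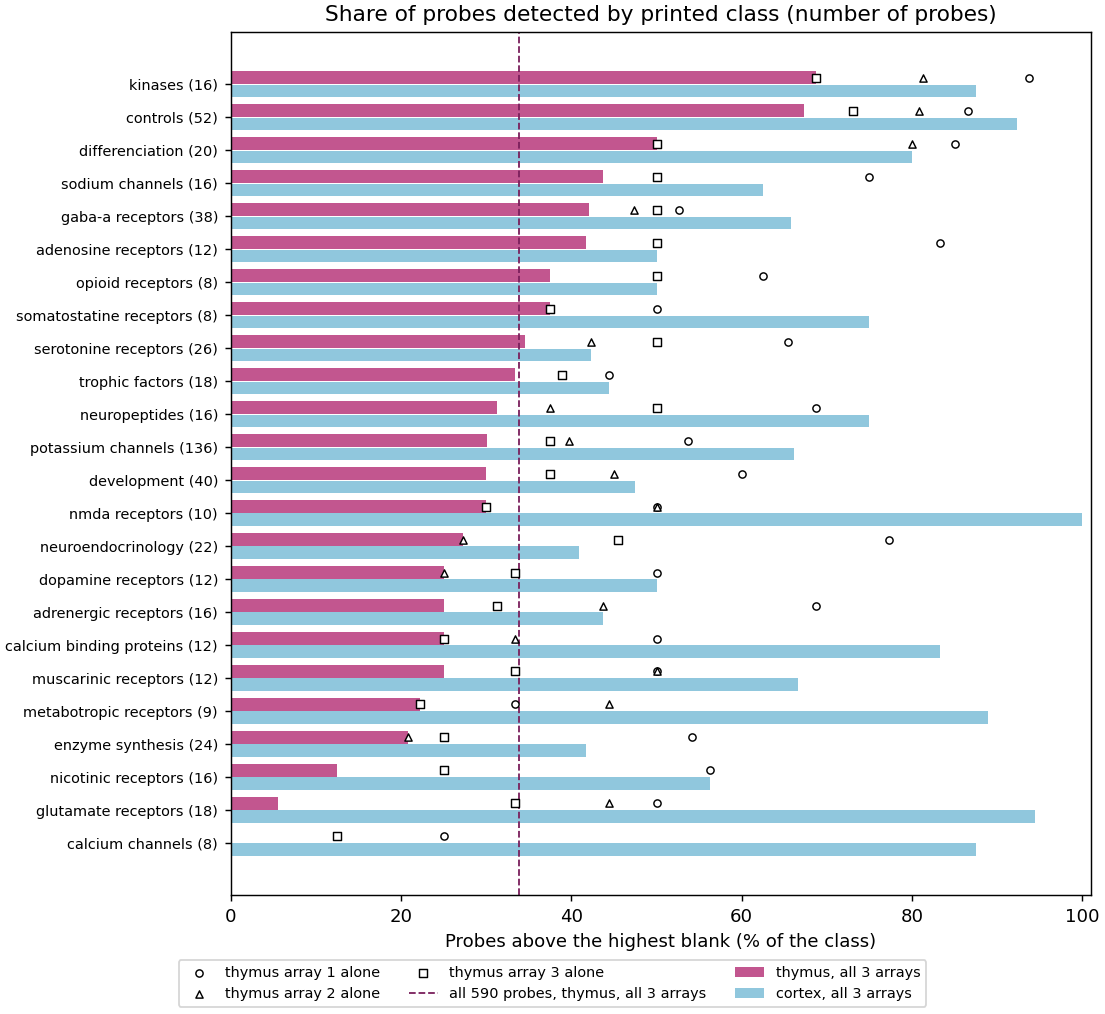
Share of probes above the highest blank (% of the class) for printed classes with at least 8 probes: bars for thymus (upper) and cortex (lower) count probes above it on all 3 arrays, symbols give each thymus array alone, and the dashed line marks the 33.9% of all probes detected in thymus. Kinases (68.8%) and controls (67.3%) lie highest, and glutamate receptors (5.56%) and calcium channels (0 of 8 probes) lowest; each single array lies at or above the all-3 bar by construction.

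Potassium channels, the largest class, had 41 of 136 probes detected (30.1%), near the share of all probes. Voltage-gated channels of the Kcna family had 8 of 14, covering 6 of 7 genes, and those of the Kcnb, Kcnc and Kcnd families 7 of 20. Inward rectifiers (Kcnj) had 10 of 36, and channels opened by calcium or sodium 4 of 10. The Kcnh family had 1 of 10, and the pacemaker channels (Hcn) 0 of 6, against 5 of 6 on the cortex arrays. A further 18 probes of the class had no potassium channel symbol and fell in no family, and 6 of them were detected. Among these were 1 oligo each of the entries printed elk2, shal1 and kca2, so the family counts may be incomplete. Kcna2 oligo 1 had 21215, 8240 and 8966 on the thymus arrays, against 12610, 10556 and 3091 on the cortex arrays, and Kcna2 oligo 2 had 1488, 1354 and 1245. Kcnc4 was detected with both oligos, at 2742, 1272 and 924 and at 19464, 4717 and 9031. An entry printed elk1 in this class, with 7597, 2683 and 3458 for oligo 1 and 6940, 1660 and 2248 for oligo 2, carries the accession of Elk1, a transcription factor and not a channel.

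Sodium channels had 7 of 16 probes detected (43.8%), 3 of them 1 oligo each of the epithelial channel subunits Scnn1a, Scnn1b and Scnn1g. The class count of 7 fell to 3 without background subtraction, 4 at the blank mean plus 3 SD and 2 at 2 times the highest blank. By limma it was 3 of 16 (18.75%), beside 25.0% of all probes tested. Scnn1b oligo 1 had 5352, 2225 and 2284 on the thymus arrays, against 1238, 903 and 512 on the cortex arrays, without overlap. Calcium channels had 0 of 8 detected, against 7 of 8 on the cortex arrays; 1 probe passed when thymus 1 was left out. Counts of 0 here say only that no probe cleared the highest blank on every array.

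Transmitters, peptides and their enzymes formed the next group. The class printed as enzyme synthesis had 5 of 24 probes detected (20.8%), with Nos1 oligo 2, of a nitric oxide synthase, at 2406, 1543 and 1259. Nos1 was printed as 2 entries, and this was the only 1 of its 4 probes detected. Both oligos of its other entry were above the blank on no thymus array. Of the 5 detected probes of the class, 2 were the oligos of an entry printed epsilon, which matched no gene symbol, so it was not identified as an enzyme. No probe of Gad2, which makes GABA, was detected; the brightest, oligo 1 of an entry printed GAD67, had 1537, 508 and 1585. The accession of that entry is that of Gad2, while GAD67 is the usual name of the product of Gad1, so the name of its 2 probes, also counted among the neuronal markers, is uncertain. Neuropeptides had 5 of 16 (31.2%). Pomc oligo 1, of the precursor of corticotropin and beta-endorphin, had 5609, 4116 and 2386, and its oligo 2 had 1028, 961 and 828 on the thymus arrays, against 1003, 424 and 263 on the cortex arrays. In the trophic class, 6 of 18 probes were detected, with both oligos of Bdnf, a neurotrophin, and of an entry printed snap25/p140 whose accession is that of Srcin1. The neuroendocrine class had 6 of 22, led by Prl oligo 2, of prolactin, a hormone that also acts on lymphocytes, at 15732, 2776 and 4446.

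Kinases had 11 of 16 probes detected (68.8%), and every one of the 8 kinase entries had at least 1 oligo detected. The share depended on the level used: 8 of 16 passed without background subtraction, 5 at 2 times the highest blank, and 6 (37.5%) by limma, which is a smaller share than that of controls in each case. Camk4, a calcium and calmodulin-dependent kinase known from both thymocytes and neurons, had 8965, 3490 and 4604 for oligo 1 and 11001, 4357 and 4874 for oligo 2 on the thymus arrays. On the cortex arrays they had 15600, 15875 and 3849 and 16744, 13324 and 2888. Its oligos lay at mean percentiles of 91.6 ± 1.45 and 93.5 ± 0.58 (SD, n = 3), 2.95 ± 0.57 and 3.18 ± 0.57 log2 units above the blank (adjusted p = 2.12e-06 and 3.53e-07, limma). The neurotrophin receptors grouped with the kinases, Ntrk2, Ntrk3 and Ngfr, had 1 oligo detected each, chosen for mention after their values were seen.

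Differentiation markers had 10 of 20 probes detected. Among cytokines of this class, Tgfb1 oligo 1 was detected, at 2931, 3091 and 2330, and its oligo 2 was not. Both oligos of an entry printed IL8, which matched no mouse gene symbol, were detected, at 1213, 796 and 1142 and at 1230, 928 and 1564. Neither oligo of Il1a was detected. IL8 and Il1a were added after their values were seen. Il1b oligo 2 had 6513, 4995 and 271 and so failed on the third array alone. Developmental transcription factors had 12 of 40 (30%), among them Otx2 oligo 2 at 11772, 3976 and 4524 and Otx1 oligo 1, the only oligo of its entry, at 4968, 5194 and 3784. Calcium-binding proteins had 3 of 12, with S100g oligo 2 of the entry printed calbindin-D9K at 4816, 2920 and 3709 and Pcp4 oligo 1 at 1012, 1044 and 983, against 13421, 12284 and 6268 for Pcp4 oligo 1 on the cortex arrays.

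The oligos of an entry often disagreed. Of 267 entries with exactly 2 oligos, 39 (14.6%) had both detected on the thymus arrays, 93 (34.8%) had 1 and 135 (50.6%) had neither. Of the 132 entries with at least 1 detected, 29.5% had both, against 59.2% of 213 entries on the cortex arrays. Such a share rises with the share of probes detected, 33.9% in thymus and 65.1% in cortex, so it does not compare agreement alone. Across entries, Spearman's rho of the mean percentiles of the oligos was 0.26 on the thymus arrays and 0.52 on the cortex arrays (n = 267; the oligos of an entry share the RNA and the array). In the 93 entries with 1 oligo detected, the other was above the blank on no array in 40, on 1 array in 34 and on 2 arrays in 19. The detected oligo was the one with the lower number in 45 of them and with the higher number in 48. Their median gap in mean percentile was 42.7 points, a description of how the groups were formed, against 5.56 points where both were detected.

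Agreement was close for several genes of high rank. Gapdh lay at mean percentiles of 99.3 and 99 with its oligos, Actb at 99.2 and 99, and Camk4 at 91.6 and 93.5. Drd4 had 89.4 and 92.3, and the entry of Srcin1 90.6 and 91.9. The widest gap belonged to Htr2c, with percentiles of 98.9 and 2.45. Htr4 followed with 3.26 and 78.3, its oligo 2 at 2306, 1356 and 2616 and its oligo 1 at -111, -195 and 5. Kcna6 had 94.6 and 25.8, and Kcnd1 11.1 and 79.9. Of the 10 widest gaps among entries with 1 oligo detected, 5 had both oligos above the highest blank on all 3 cortex arrays, those of Htr2c, Grin2c, Kcna6, Kcna4 and Kcnh3.

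**Figure D4:**
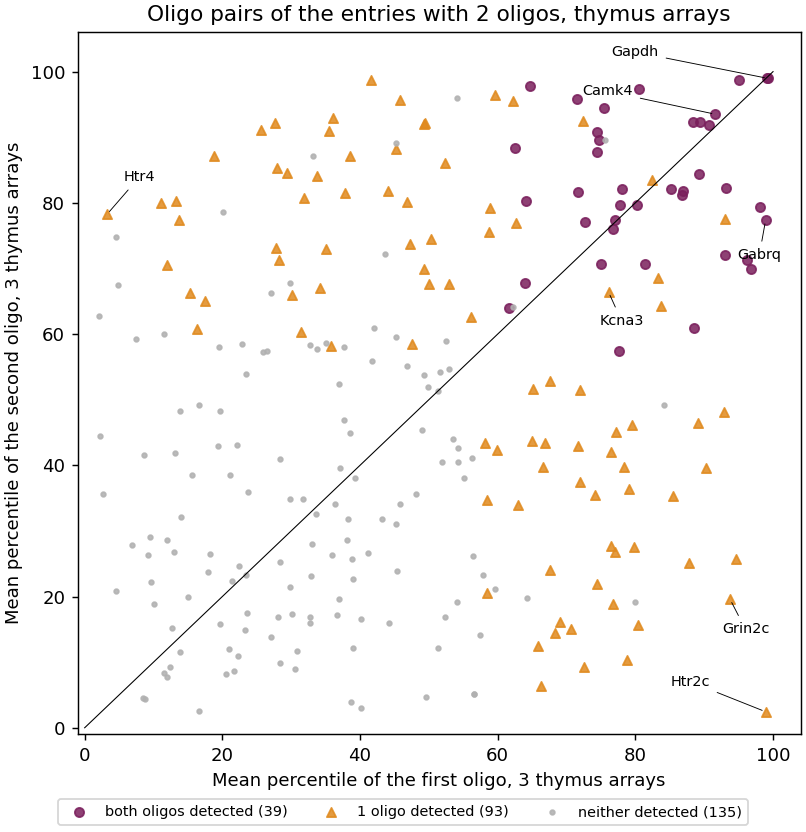
Mean percentile over the 3 thymus arrays of the first oligo (horizontal) and second oligo (vertical) of 267 entries, by how many of the oligos were detected; the line marks equal percentiles. Gapdh and Camk4 lie close to the line near the top, Htr2c (98.9 and 2.45), Grin2c and Htr4 far from it.

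Genes printed as more than 1 entry gave a further check. Of 14 such genes, matched by accession or printed name, 3 had a detected probe in every entry (Hprt and S100g among them), 5 in some entries and 6 in none. Adora1 had both oligos of the entry printed adora1 detected and neither of the entry printed a1, with mean percentiles over its 4 oligos from 23.4 to 94.4. Kcnj1 had 8 probes in 4 entries, of which 3 were detected, from 8.92 to 79.8 in mean percentile. Of the 20 probes printed as rat sequences, 6 were detected (30%), and of the 570 others 194 (34%).

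Detected probes held their rank between arrays better than the rest, with a median range of percentile of 9.44 points, against 19.2 points for undetected probes; detection itself favours stable ranks, so this is a description. Sstr4 oligo 1 ranged over 32.7 points, at 1070, 991 and 2985, and was brightest on the third array. Narrow ranges belonged to Htr2c oligo 1 (0.33 points) and Gabrg3 oligo 1 (0.28 points, at 15439, 6072 and 8455).

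Fewer probes were detected with thymus RNA than with cortex RNA. The thymus arrays averaged 292 ± 59.9 probes and the cortex arrays 463 ± 49.9 (SD, n = 3 each), with no overlap, a difference of -171 probes (two-sided exact permutation p = 0.1, the smallest that 3 arrays against 3 allow). Thymus was lower in each inferred scan setting that held both tissues, with 360 against 518 and 449 in the first and 269 against 421 in the second. The median net signal of gene probes was 950, 452 and 564 on the thymus arrays, against 2573, 1868 and 829 on the cortex arrays, and the part of array brightness in the counts was not tested. On all 3 arrays, 200 probes were detected in thymus (33.9%) and 384 in cortex (65.1%). The 177 shared probes were 88.5% of the thymus set and 46.1% of the cortex set. Of the 23 thymus-detected probes that were not on all 3 cortex arrays, 19 missed 1 cortex array, and 2 were above the blank on none, Kcnn4 oligo 1 and Htr3b oligo 2. Htr3b oligo 2, of a serotonin-gated channel, had 961, 610 and 999 on the thymus arrays, against 476, 354 and 52 on the cortex arrays.

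How single probes differed between the tissues depended on the scaling of the arrays. In a limma fit of quantile-normalized log2 values, 110 of 465 probes were higher in thymus (23.7%) and 113 lower (24.3%; adjusted p under 0.05). Without scaling, 0 were higher (6 at an unadjusted p under 0.05) and 117 lower, and centred on the control class, 28 were higher and 142 lower. The median difference of all tested probes was 0.10 log2 units with quantile scaling, -0.86 without scaling and -0.48 with the control class. Over the 199 detected thymus probes tested, which the detection rule favours toward thymus, it was 0.65, -0.31 and 0.07.

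Several named probes kept the sign of their difference under those 3 scalings. Rpsa oligo 1 was higher in thymus by 2.48 ± 0.34 log2 units with quantile scaling (SE from 3 arrays a tissue; adjusted p = 2.2e-05, limma) and by 1.92 relative to the control class (adjusted p = 0.000306), and it had a difference of 1.53 without scaling (adjusted p = 0.115). Kcna3 oligo 1 was higher by 2.01 ± 0.39 with quantile scaling (adjusted p = 0.000432, limma) and by 1.37 relative to the control class (adjusted p = 0.0138), and it had a difference of 0.98 without scaling (adjusted p = 0.362). The other oligos of these genes had smaller differences that passed with quantile scaling, but not with the control class or without scaling: 1.35 for Rpsa oligo 2, 1.56 for Rpsa oligo 3 and 1.63 for Kcna3 oligo 2 (adjusted p = 0.0392, 0.0187 and 0.00815, limma), against 0.80, 0.92 and 1.01 relative to the control class (adjusted p = 0.187, 0.126 and 0.0857). Scnn1b oligo 1 was higher by 2.71 ± 0.34 with quantile scaling (adjusted p = 9e-06, limma) and had a difference of 1.67 without scaling (adjusted p = 0.0763). Eno2 oligo 1 was lower, by -2.22 ± 0.35 log2 units with quantile scaling and -3.18 without (adjusted p = 9.4e-05 and 0.000174, limma). Camk4 oligo 2 did not pass, and its sign depended on the scaling, with 0.40 ± 0.36 (adjusted p = 0.397, limma) with quantile scaling and -0.45 without.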

How the data were processed

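Gene probes were read from the deposited scanner output of 6 single-colour arrays, whose deposited values are un-normalized spot intensity. Per the file headers, segmentation was automatic and background was local to each spot. The flag column deposited with each spot was used to leave out flagged spots. Per the labels, Cy5 was incorporated by reverse transcription from random hexamers. With 3 arrays a tissue, precision is low.

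The members and gene lists were chosen with earlier results of these data known. Named probes are the 25 brightest detected, the 3 brightest detected of each class, markers and controls, 5 on each side of the detection level, 20 entries with both oligos detected, the 10 with the widest gap and the 5 with the widest range; any other probe and every subfamily in the text was chosen after its values were seen. Some probes that the rule names are not reported here; counts include them. For probes with a missing array, mean percentiles cover the arrays with a value.

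limma 3.58.1 in R 4.3.3 was fitted to log2(net signal floored at 0 + 64) minus the same of the highest blank (one-sided), and to thymus minus cortex after normexp (offset 50), spot averaging and quantile normalization (two-sided), for probes above background by 2 SD on at least 3 of 6 arrays. Both adjustments were Benjamini-Hochberg over all probes fitted. Fits were tested on simulated data. Alternatives covered blanks, background, flags, spot summary, scaling, filters, blocks and each array left out. Different oligos were kept apart.

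Symbols came from the RefSeq table of GRCm38.p6, by accession for 206 probes and by printed name for 320; 64 kept the printed name or entry. Oligo sequences and genome positions were not used here. The deposited value table, in intensity units that the authors scaled, covers 20 probes and served only to check the spot summary; its thymus columns equalled the net signals times 1.85, 3.41 and 3.39 within 1%, while its cortex 3 column equalled 5.68 times those of thymus 1. Python 3.11.15 with pandas 2.3.3 read the files.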

Additional observations from a re-analysis of the deposited data

Results flagged for a closer look

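Signal outside the gene probes came from 32 control spots printed as G3PDH, which lay above the highest blank on every array in all 32 spots. Their median net signal was 25410, 10855 and 10560 on the thymus arrays, a mean of 15608, against 65155, 64678 and 24496 on the cortex arrays.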

How the results depend on the processing

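The 200 detected probes and 39 entries with both oligos depend most on flagged spots. With flagged spots kept, the highest blank was 784 on thymus array 1, 3831 on array 2 and 3342 on array 3, the counts were 37 probes and 3 entries, the thymus minus cortex difference was -57.3 probes (exact permutation p = 0.7) and 10 probes passed limma. At 2 times the highest blank the counts were 114 and 14; with Buffer spots as the only blanks, 59 entries; with 2 of 3 arrays sufficing, 281 and 63. The other settings of blank, background and spot summary gave 175 to 250 probes. Of these, the blank mean plus 3 SD (187) and every array with a value (210) were chosen after seeing the data, as were all alternatives for entries. Leaving out 1 thymus array gave 205 to 241 probes, 40 to 52 entries and, for limma, 91 to 128. Without thymus 2, neuropeptides had 8 probes and the neuroendocrine class 10. Leaving out any array kept thymus below cortex, by -205 to -143 probes. For thymus minus cortex, 223 probes passed limma, 117 without scaling, 81 above background on all 6 arrays and 111 to 219 with 1 array left out, the lowest values coming without cortex 2 (111), cortex 1 (117) or cortex 3 (139), where fewer probes passed the filter. The replicate block gave 210 and the inferred scan setting as a block 219. Deviations of same-numbered arrays correlated at 0.17, -0.09 and 0.01, so the replicate numbers were not taken as pairs.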

Other observations

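Control oligos with no mouse gene name, of other organisms or unnamed, gave signal on some thymus arrays. None was above the highest blank on all 3. Signal above the blank on single arrays thus also came from oligos with no named mouse target, and its part in the gene probes was not tested. XCP2-S1 had net signals of 2818, 1898 and 660, above the highest blank on 2 of the 3, and 1913, 1908 and 134 on the cortex arrays. RCBL-S1 had 667, 102 and 1160 on the thymus arrays, above the blank on 2, and 310, 343 and 38 on the cortex arrays, above it on none. CAB-S1 had 1122, 111 and 210 on the thymus arrays. Of 2 control oligos with no name, oligo 1 had 3356 and 1396 on the first and second thymus arrays and no unflagged spot on the third, and oligo 2 was above the blank on the first only. RCA-S1, both oligos printed as M. domestica and the probes printed as unknown were above it on no thymus array.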
